A study of Homo sapiens with 2 samples.

Results

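The LINC and antisense long noncoding transcripts of HCT-116 cells were examined: RNAs named for lying between genes (LINC), on the strand opposite a gene (-AS) or within an intron (-IT). Members were the isoforms of at least 300 nt whose nearest RefSeq transcript is a noncoding (NR) record and whose symbol begins with LINC and a digit, or ends in -AS or -IT and a digit. They were 2885 of the 63236 isoforms and 1904 of the 26260 symbols in the table. By name, 873 symbols were LINC, 972 were -AS and 59 were -IT. Of the member isoforms, 116 had a splice pattern that differed from the RefSeq transcript, and all had the status OK in both libraries.

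HCT-116 is an established human colorectal carcinoma line. The control group was untreated HCT-116 cells and the LPA group was HCT-116 cells given lysophosphatidic acid, a signalling lipid that acts on G protein-coupled receptors, at 10 µM for 24 h after serum starvation. Both came from culture in medium with serum and antibiotics, and whether the control cells were serum starved is not given in the sources used here. Each group had 1 library of poly-A RNA, so no difference below has a replicate check or a p-value, and each is a difference between these libraries.

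Long noncoding RNAs are mostly spliced and polyadenylated like messenger RNAs, but are generally less abundant and more restricted to certain cell types. An -AS RNA can overlap its sense gene, start beside it and run away from it from a shared promoter region, or lie near it. Some act on chromatin or on neighbouring genes, some bind proteins or microRNAs, some are hosts of small nucleolar RNAs, and several were later found to encode small proteins. The library kit did not mark strand, so where an antisense RNA lies over exons of its sense gene the reads of both cannot be told apart.

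The promoter windows of 8 members are shown because the results below turn on these genes: the 3 with the highest log2 ratios among members with a promoter in the table, the 3 with the lowest, and the most abundant ones. Each runs from 250 bases before to 50 bases after the gene start, 5′ to 3′ on the strand of the gene, from RefSeq GRCh38.p14. LINC01057, which is named SLC44A3-AS1 in RefSeq, is named only. Capitals mark matches, on either strand, to the CCAAT box, to the E-box CACGTG, to the GC box GGGCGG or to the TEAD-type motif CATTCC. The TATA box TATAAA, the AP-1 motif TGANTCA, the CRE motif TGACGTCA, the ATF4 and CEBP composite motif TGATGNAA and the ETS motif CCGGAAGT were searched as well. None of these had a match on either strand in the 8 windows.
CECR5-AS1 (HDHD5-AS1), chr22:17159139-17159438, plus strand: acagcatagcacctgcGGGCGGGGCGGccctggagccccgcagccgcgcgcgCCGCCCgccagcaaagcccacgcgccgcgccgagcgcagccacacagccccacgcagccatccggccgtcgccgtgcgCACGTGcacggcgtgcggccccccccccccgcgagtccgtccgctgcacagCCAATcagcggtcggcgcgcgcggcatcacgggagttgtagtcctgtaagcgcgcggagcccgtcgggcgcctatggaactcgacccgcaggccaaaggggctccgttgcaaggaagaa
LINC01106, chr2:110384487-110384786, minus strand: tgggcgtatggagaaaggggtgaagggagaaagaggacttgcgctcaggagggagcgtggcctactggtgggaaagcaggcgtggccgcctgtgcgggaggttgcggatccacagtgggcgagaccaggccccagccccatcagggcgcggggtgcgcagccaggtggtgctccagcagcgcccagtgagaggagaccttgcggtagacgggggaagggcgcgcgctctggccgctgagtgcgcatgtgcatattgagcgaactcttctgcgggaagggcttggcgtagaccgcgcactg
FOXD2-AS1, chr1:47434592-47434891, minus strand: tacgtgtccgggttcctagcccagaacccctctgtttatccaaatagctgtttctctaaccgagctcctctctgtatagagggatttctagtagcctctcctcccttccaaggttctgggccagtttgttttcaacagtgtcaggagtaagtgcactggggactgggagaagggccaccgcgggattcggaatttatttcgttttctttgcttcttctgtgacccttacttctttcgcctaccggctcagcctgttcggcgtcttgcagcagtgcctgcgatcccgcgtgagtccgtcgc
LINC01063, chr3:196632538-196632837, minus strand: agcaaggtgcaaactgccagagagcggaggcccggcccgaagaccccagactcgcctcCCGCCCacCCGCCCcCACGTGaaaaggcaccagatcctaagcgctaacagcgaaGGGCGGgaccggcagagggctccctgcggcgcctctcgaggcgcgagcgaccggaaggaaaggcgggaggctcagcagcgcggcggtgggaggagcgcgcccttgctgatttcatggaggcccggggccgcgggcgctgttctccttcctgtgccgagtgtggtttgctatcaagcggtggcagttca
SMAD1-AS1, chr4:145517145-145517444, minus strand: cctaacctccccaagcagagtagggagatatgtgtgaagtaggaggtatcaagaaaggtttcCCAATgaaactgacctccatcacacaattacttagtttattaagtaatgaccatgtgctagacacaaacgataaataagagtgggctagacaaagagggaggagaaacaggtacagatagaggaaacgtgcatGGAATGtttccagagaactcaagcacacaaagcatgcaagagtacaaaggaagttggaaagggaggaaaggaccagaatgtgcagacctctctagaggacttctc
MED4-AS1, chr13:48076887-48077186, plus strand: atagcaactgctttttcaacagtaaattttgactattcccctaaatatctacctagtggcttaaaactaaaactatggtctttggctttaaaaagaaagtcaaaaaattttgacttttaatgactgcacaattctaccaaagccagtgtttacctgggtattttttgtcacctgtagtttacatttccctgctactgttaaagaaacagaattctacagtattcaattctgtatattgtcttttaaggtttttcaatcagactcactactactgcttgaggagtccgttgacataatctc
LRRC75A-AS1 (SNHG29), chr17:16438737-16439036, plus strand: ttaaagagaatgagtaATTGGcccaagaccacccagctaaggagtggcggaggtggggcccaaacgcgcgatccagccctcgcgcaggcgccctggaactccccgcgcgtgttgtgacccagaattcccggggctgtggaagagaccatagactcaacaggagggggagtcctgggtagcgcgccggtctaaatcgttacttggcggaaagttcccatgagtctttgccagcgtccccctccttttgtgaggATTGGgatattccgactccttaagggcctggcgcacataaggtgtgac
PCNA-AS1, chr20:5119336-5119635, plus strand: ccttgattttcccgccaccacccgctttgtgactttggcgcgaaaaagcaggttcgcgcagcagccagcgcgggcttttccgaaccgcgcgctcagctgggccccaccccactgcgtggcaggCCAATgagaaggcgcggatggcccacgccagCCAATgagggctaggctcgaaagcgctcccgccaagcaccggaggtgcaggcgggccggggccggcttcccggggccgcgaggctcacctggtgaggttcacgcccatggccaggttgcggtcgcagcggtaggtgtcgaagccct

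The 8 windows differed widely in base composition. The window of CECR5-AS1 had a GC content of 74.7% and 46 CpG, with 3 GC boxes, of which 2 overlap by 1 base, and 1 E-box. LINC01063 also had 3 GC boxes and 1 E-box, in a window of 68.3% GC and 30 CpG. LRRC75A-AS1 and PCNA-AS1, the abundant members, had 2 CCAAT matches each and no GC box. The windows of LINC01106, FOXD2-AS1 and MED4-AS1 had no match to any of the 9 motifs. The windows of SMAD1-AS1 (43.7% GC, 2 CpG) and MED4-AS1 (33.3% GC, 1 CpG) were the poorest in CpG. Of all 35116 promoters in the table, 45.0% held the GC box, 34.6% the CCAAT box, 14.03% the TEAD-type motif and 7.26% the E-box. The TATA box was in 11.5% of them, the AP-1 motif in 7.71%, the ETS motif in 4.14%, the composite motif in 3.62% and the CRE motif in 1.85%.

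Level and promoter composition went together across members. Among the 242 members with a mean of at least 1 FPKM (a fragment count relative to transcript length and sequencing depth) and a promoter in the table, the median window had 64.7% GC and 24 CpG, against 52.0% and 6 in the 1285 members below that level and 58.7% and 14 over all promoters. The GC box was in 57.0% of the windows of the measured members and 29.8% of the others. The E-box was in 14.05% and 5.84%, and the TATA box in 6.61% and 12.2%. The CCAAT box was about equally common in both, at 36.0% and 34.0%. These shares describe letters in a window and say nothing of whether a factor binds there.

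Most members were at or near 0 in HCT-116 cells. Of the 1904 symbols, 1033 (54.3%) were listed at 0 FPKM in both libraries, 201 were above 0 in 1 library and 670 were above 0 in both. A mean of at least 1 FPKM was reached by 251 symbols (13.2%), of at least 10 by 41 and of at least 100 by 5. Over all symbols with isoforms of this length, 26.9% were listed at 0 in both libraries and 48.7% reached 1 FPKM. Among those that reached 1 FPKM, the median was 2.75 FPKM for members and 8.98 FPKM for all symbols.

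The name classes differed in how often they were measured. The -AS symbols reached a mean of 1 FPKM in 173 of 972 cases (17.8%), LINC symbols in 76 of 873 (8.71%) and -IT symbols in 2 of 59 (3.39%). At the isoform level 9.95% of members reached 1 FPKM, against 13.4% of the other 7778 noncoding RefSeq isoforms and 31.4% of the 49772 messenger (NM) isoforms. The length limit mattered little: 15 isoforms with a member-like name were shorter than 300 nt. Those nearest the limit (LINC01201 and LINC01246 at 294 nt, HTR2A-AS1 at 297 nt) and the shortest members (IQCH-AS1 at 305 nt, USP12-AS1 at 307 nt) were listed at 0 in both libraries. Of the 15, only the 243-nt isoform of CDC37L1-AS1 reached 1 FPKM, at 9.42 FPKM in untreated and 5.29 FPKM in LPA-treated cells.

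**Figure D1:**
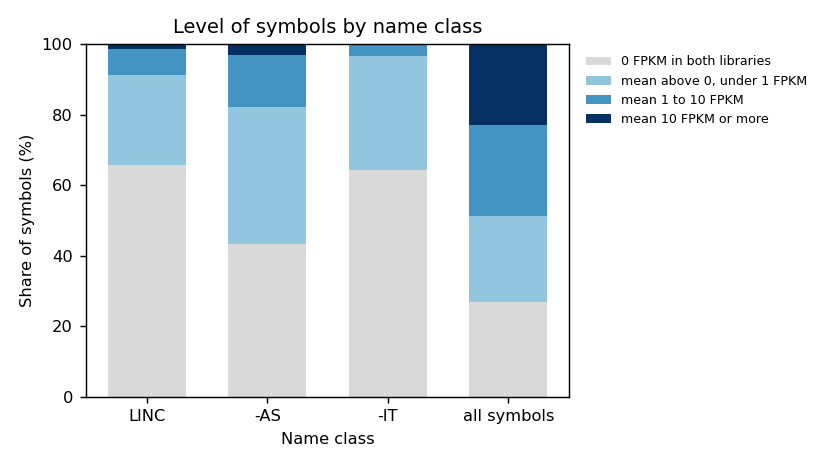
Share of symbols (y axis, percent) in each range of mean FPKM over both libraries, for the LINC, -AS and -IT symbols and for all symbols with isoforms of at least 300 nt (x axis). Symbols at 0 FPKM in both libraries make up 65.8% of the LINC, 43.3% of the -AS and 64.4% of the -IT symbols, against 26.9% of all.

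Depth estimated from the lowest FPKM values was about 16960300 fragments for the untreated and 16148400 for the treated library. Members held 0.437% of all FPKM in untreated and 0.421% in LPA-treated cells. Of the colon epithelium markers, 6 of 8 were measured, with a summed level of 2880 FPKM in untreated and 3762 FPKM in LPA-treated cells, while VIL1 was at 0 and LGALS4 at or below 0.290 FPKM. Leukocyte markers summed to 0.448 and 0.487 FPKM and endothelial markers to 0.105 and 0.121 FPKM. Fibroblast markers summed to 5.78 and 4.32 FPKM, nearly all of it COL1A1, with COL1A2, DCN and LUM at 0. In such bulk RNA, fewer cells with a transcript and less of it per cell cannot be told apart.

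A few members held most of the signal. LRRC75A-AS1, now named SNHG29, a host gene of small nucleolar RNAs (chr17:16438987-16470648 in GRCh38), stood at 1137 FPKM over 39 isoforms in untreated and 1014 FPKM in LPA-treated cells. It alone made up 36.2% and 33.9% of all member FPKM. Its log2 ratio, here and below log2 of (LPA FPKM + 1) over (control FPKM + 1), was -0.16. Unless another setting is named, folds below are on this scale, where FPKM of low members can differ by more than the fold given.

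LINC01057 ranked next and was the abundant member with the greatest difference between the libraries. This transcript, from chr1:94616352-94820232, was at 108 FPKM in the control, with deposited lower and upper bounds of 78.5 and 137, and at 198 FPKM in the LPA library, with bounds of 144 and 252. The bounds did not overlap, and the log2 ratio was 0.87. These bounds come from the authors' software, their level is not stated, and they hold no replicate error. A stretch of 392 nt of its transcript was 98.0% identical to AL161431.1, a lincRNA gene elsewhere, so reads of these genes could be shared.

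PCNA-AS1, which lies wholly within PCNA, the gene of the sliding clamp of DNA replication, was at 146 FPKM in untreated and 109.9 FPKM in LPA-treated cells (log2 ratio -0.41). PCNA itself was at 126 and 145 FPKM, in the other direction. The bounds of PCNA-AS1 ran from 52.7 to 240.1 and from 18.2 to 202, and overlapped. The RNA is 384 nt long and lies over PCNA, and how reads of both were divided was not tested.

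Several of the next members are now known as genes of small proteins. LINC00493, now SMIM26, which encodes a mitochondrial small protein, was at 107 FPKM in untreated and 99.5 FPKM in LPA-treated cells. LINC01420, now NBDY, whose protein binds the mRNA decapping machinery, was at 100.1 and 101 FPKM. LINC00998, now SMIM30, was at 80.3 and 63.4 FPKM (log2 ratio -0.34). Of the 7 LINC symbols listed for small proteins, 5 were measured, 1 above and 4 below a log2 ratio of 0, with a median of -0.19 and none 2-fold apart. The remaining ones were LINC00116, now MTLN, the gene of a mitochondrial inner membrane peptide, at 11.0 and 9.53 FPKM, and LINC00467 at 11.7 and 8.19 FPKM (log2 ratio -0.46).

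For 11 of the measured members the RefSeq match is now listed as protein coding. Together these 11 members held 12.5% of the FPKM of measured members, with a median log2 ratio of -0.17 and a range from -0.37 to 0.16. The lowest, HNRNPU-AS1, matched a RefSeq gene with the start and strand of HNRNPU itself. That match does not show a separate RNA found to encode a protein. RefSeq kept 234 as lncRNA, and 62 of the 250 measured members with a RefSeq match now carry another symbol. Of those, 24 are now named divergent transcripts (-DT), which start beside a gene and run away from it. In the -DT group 18 were below and 6 above a log2 ratio of 0, with a median of -0.10 and a range from -0.69 to 0.07. Of all 251 measured members 144 were below and 107 above 0. Of all 11634 genes tested 5800 were below and 5834 above 0.

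The other abundant members include RNAs with known roles. LINC00657, now NORAD, a cytoplasmic RNA that binds Pumilio proteins, was at 36.8 FPKM in untreated and 32.9 FPKM in LPA-treated cells, with 4614 nt of its transcript 95.9% identical to OVCH1-AS1. LINC01578, now CHASERR, which lies upstream of CHD2 and limits its expression, was at 35.2 and 32.4 FPKM. LINC01604, now MINCR, an RNA induced by MYC, was at 28.6 and 38.1 FPKM (log2 ratio 0.40). These RNAs did not share a direction, and the bounds of each leading isoform overlapped between libraries.

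LINC00152, now CYTOR, which is raised in many carcinomas, was at 30.5 and 35.3 FPKM. Of its 529-nt GENCODE release 29 transcript, 515 nt were 98.8% identical to MIR4435-2HG. EPB41L4A-AS1 was at 46.6 and 53.1 FPKM, about 27.4 times its sense gene EPB41L4A, which was at 1.63 and 2.004 FPKM. FBXO22-AS1 was at 48.5 and 49.1 FPKM.

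**Figure D2:**
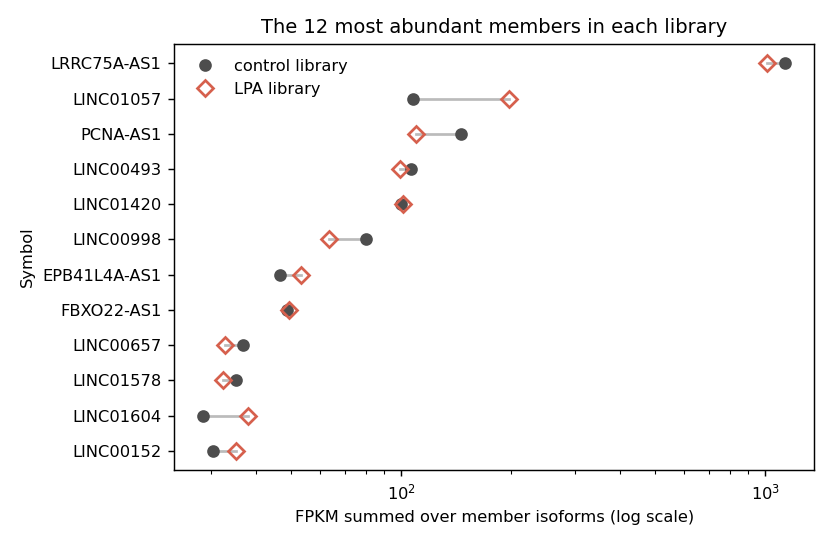
FPKM summed over member isoforms (x axis, log scale) of the 12 most abundant members in the control library (filled circles) and the LPA library (open diamonds). LRRC75A-AS1 stands apart at 1137 and 1014 FPKM, and LINC01057 has the widest gap, 108 against 198 FPKM.

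Few members were 2-fold apart between the libraries on the scale with 1 added to each FPKM. Among the 251 symbols of mean FPKM 1 or more, 1 was at least 2-fold higher in the LPA library (CECR5-AS1) and 4 were at least 2-fold lower (LINC01063, SMAD1-AS1, MED4-AS1 and UXT-AS1). These are 0.398% and 1.59% of members, and the same criteria called 0.206% of all 11634 genes tested higher and 0.0602% lower. At 1.5-fold, 8 members were higher (3.19%) and 19 lower (7.57%), against 1.26% and 1.37% of all genes. The 2-fold counts moved with the settings, from 0 to 4 higher and from 0 to 10 lower.

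Members were shorter than other genes and rested on fewer fragments, and the part of this in the difference was not tested. The leading isoform, the one of highest mean FPKM in its gene, had a median length of 1377 nt in members and 2836 nt in other genes, and an estimated median of 64.7 against 407 fragments in the control. Of the measured members, 226 were at 1 FPKM or more in both libraries, 16 in the control alone and 9 in the LPA library alone. CECR5-AS1, LINC01063 and SMAD1-AS1 were among the latter 25, so they were measured only through the library in which they were high. Among genes of mean FPKM 1 to 5, where all the 2-fold members lay, 4 of 178 members were called lower (2.25%) against 0.153% of all genes in that range, and 1 was called higher against 0.408%. At 1.5-fold in that range, 7 members were higher (3.93%, all genes 1.43%) and 16 lower (8.99%, all genes 1.94%). The leading isoform in that range was 1419 nt in members against 3749 nt in other genes at the median, with an estimated 41.3 against 135 fragments in the control.

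The middle of the distribution lay close to that of all genes. The median log2 ratio was -0.06 over the 251 members and 0.00080 over all genes, with 144 members below 0 and 107 above. Those below 0 were 57.4% of members, against 49.7% of other genes. At 1 to 5 FPKM they were 60.1% of members, against 53.9% of other genes. The middle 95% of members spanned -0.77 to 0.62, against -0.50 to 0.48 for all genes. By class the median was -0.08 for LINC (33 above and 43 below 0) and -0.06 for -AS (72 above and 101 below), and both measured -IT members were above 0. By level it was -0.06 at 1 to 2 FPKM (93 members), -0.13 at 2 to 5 (85), 0.01 at 5 to 10 (32) and -0.05 at 10 or more (41). The other genes had medians of -0.03, -0.01, -0.01 and 0.03 in the same ranges.

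**Figure D3:**
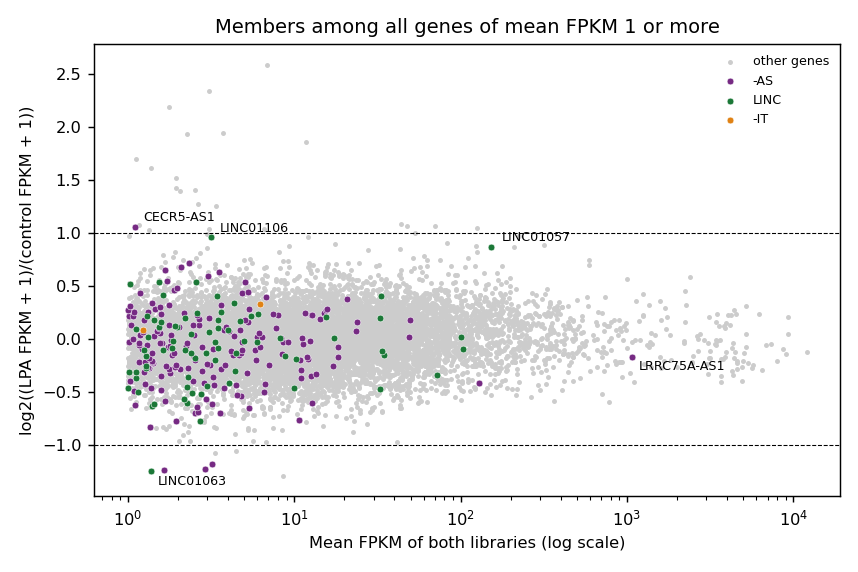
Log2 ratio of LPA over control, each FPKM + 1 (y axis), against mean FPKM of both libraries (x axis, log scale), for -AS (purple), LINC (green) and -IT (orange) members and for other genes (grey). Dashed lines mark 2-fold. The 5 members outside the lines all lie under 5 FPKM, and LINC01057 sits high among the abundant genes.

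The deposited bounds separated the libraries for few leading isoforms. They did so for 2 members higher and 2 lower in the LPA library, against 1.43% and 1.35% of all genes. None of the 5 members 2-fold apart was among them. The higher ones were LINC01057 and LINC01106, and the lower ones NR2F1-AS1 and LINC01128. In LINC01128 the leading isoform (of 6) went from 1.35 to 0.343 FPKM, while the sum over isoforms was 1.90 in untreated and 3.21 FPKM in treated cells.

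LINC01106 came just short of 2-fold with 1 added to each FPKM, though its FPKM alone were more than 2-fold apart. With 0.5 added in place of 1, its log2 ratio was 1.11. It was at 1.83 FPKM in untreated cells (leading isoform bounds 0.872 to 2.79) and 4.51 FPKM in LPA-treated cells (bounds 2.81 to 6.22), a log2 ratio of 0.96, on an estimated 66.2 and 150 fragments. It spans chr2:110375109-110384536, and 1727 nt of its transcript were 99.4% identical to LINC01123, another member. LINC01123 was at 1.92 and 1.76 FPKM, so it did not share the difference, but how reads were divided between these copies is not known here.

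CECR5-AS1, now HDHD5-AS1, had the highest log2 ratio, 1.06, on very few fragments. It was at 0.366 FPKM in untreated and 1.85 FPKM in LPA-treated cells, which for its 340-nt leading isoform is an estimated 1.25 and 4.94 fragments. Its bounds (0 to 4.11 and 0 to 11.0) overlapped almost entirely. The gene it is named for, CECR5, was at 45.8 and 50.6 FPKM.

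FOXD2-AS1, a single-exon RNA beside the forkhead gene FOXD2, was at 1.52 FPKM in untreated and 3.14 FPKM in LPA-treated cells, with a log2 ratio of 0.72. It rested on an estimated 63.1 and 120 fragments, and its bounds (0.645 to 2.39 and 1.72 to 4.55) overlapped in part. FOXD2 was at 1.31 and 1.52 FPKM. FOXD2-AS1 had no exon over a coding exon of the opposite strand in GENCODE release 29.

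IDH1-AS1 starts 775 nt from IDH1, the gene of cytosolic isocitrate dehydrogenase, and runs away from it. It was at 1.08 FPKM in untreated and 2.27 FPKM in LPA-treated cells (log2 ratio 0.65), while IDH1 was at 75.8 and 49.8 FPKM (log2 ratio -0.60). The members of this divergent pair thus differed between the libraries in opposite directions. The bounds of IDH1-AS1 (0.0161 to 2.15 and 0.549 to 3.998) overlapped, on an estimated 6.54 and 12 fragments.

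The remaining members at the high end were at low levels in both libraries. GAS6-AS1 was at 2.57 and 4.54 FPKM (log2 ratio 0.63), with GAS6, a ligand of the TAM receptor kinases, at 25.8 and 29.5 FPKM. HOXB-AS3, from the HOXB cluster, was at 1.38 and 2.82 FPKM over 8 isoforms (log2 ratio 0.68). PRRT3-AS1 was at 2.23 and 3.87 FPKM (log2 ratio 0.59), with PRRT3 at 0.757 and 0.518 FPKM. Bounds overlapped for all of these.

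LINC01063 had the lowest log2 ratio, -1.24, again on few fragments. It was at 2.33 FPKM in untreated cells (bounds 0.130 to 4.53) and 0.408 FPKM in LPA-treated cells (bounds 0 to 1.51). For its 342 nt this is an estimated 8 and 1.09 fragments. It spans chr3:196631504-196632587 and overlaps no coding exon.

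The other members 2-fold lower were antisense RNAs that lie mostly over exons of the gene they are named for. SMAD1-AS1 was at 2.71 FPKM in untreated and 0.579 FPKM in LPA-treated cells (log2 ratio -1.23). Of its GENCODE transcript (481 nt, deposited isoform 594 nt), 78.2% lies over exons of SMAD1, an effector of BMP signalling. MED4-AS1 was at 4.46 and 1.33 FPKM (log2 ratio -1.23), with 56.6% over MED4, a Mediator subunit. UXT-AS1 was at 4.84 and 1.59 FPKM (log2 ratio -1.17), with 58.2% over UXT, a prefoldin-like protein. The lower bound was 0 in both libraries for all of these, so the bounds overlapped.

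Their sense genes did not share 1 direction. SMAD1 was at 6.47 FPKM in untreated and 4.69 FPKM in LPA-treated cells, MED4 at 24.2 and 18.4 FPKM, and UXT at 122 and 134 FPKM. Overlap of at least 50% with coding exons of the opposite strand was found in 20 of the 244 measured members with a GENCODE transcript. Of these 20, 3 were 2-fold lower and none higher, with 10 above and 10 below 0 and a median of -0.0034, where 0.0602% of all genes were called lower and 0.206% higher. Of the 79 members with a smaller overlap, none was 2-fold lower and 1 was higher (CECR5-AS1), with a median of -0.08. Of the 145 with no such overlap, 1 was 2-fold lower (LINC01063) and none higher, with a median of -0.06. Of the 244 GENCODE transcripts, 112 were within 50 nt of the deposited length. For the others the overlap share may not hold for the isoform measured.

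CATIP-AS1 fell short of the 2-fold limit with 1 added to each FPKM (log2 ratio -0.83) and reached it with 0.5 added (-1.07). It was at 2.03 FPKM in untreated and 0.707 FPKM in LPA-treated cells, on an estimated 13.6 and 4.17 fragments. Of its GENCODE transcript (480 nt, deposited isoform 547 nt), 72.7% lies over exons of CATIP. SLC16A1-AS1, named for the gene of a monocarboxylate transporter, was at 2.72 and 1.18 FPKM (log2 ratio -0.77), while SLC16A1 was at 28.0 and 27.0 FPKM. LINC00920 was at 3.67 and 1.74 FPKM (log2 ratio -0.77), with bounds of 2.03 to 5.31 and 0.758 to 2.72. These had overlapping bounds.

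OTUD6B-AS1 was the low member best covered by fragments. It was at 13.6 FPKM in untreated and 7.60 FPKM in LPA-treated cells, a log2 ratio of -0.77, and its leading isoform rested on an estimated 434 and 201 fragments. The bounds of that isoform (8.14 to 15.9 and 3.87 to 8.33) overlapped only at their ends. OTUD6B, the gene of a deubiquitinase, was lower as well, at 6.36 and 4.18 FPKM (log2 ratio -0.51). The gene bodies of this pair do not overlap.

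**Figure D4:**
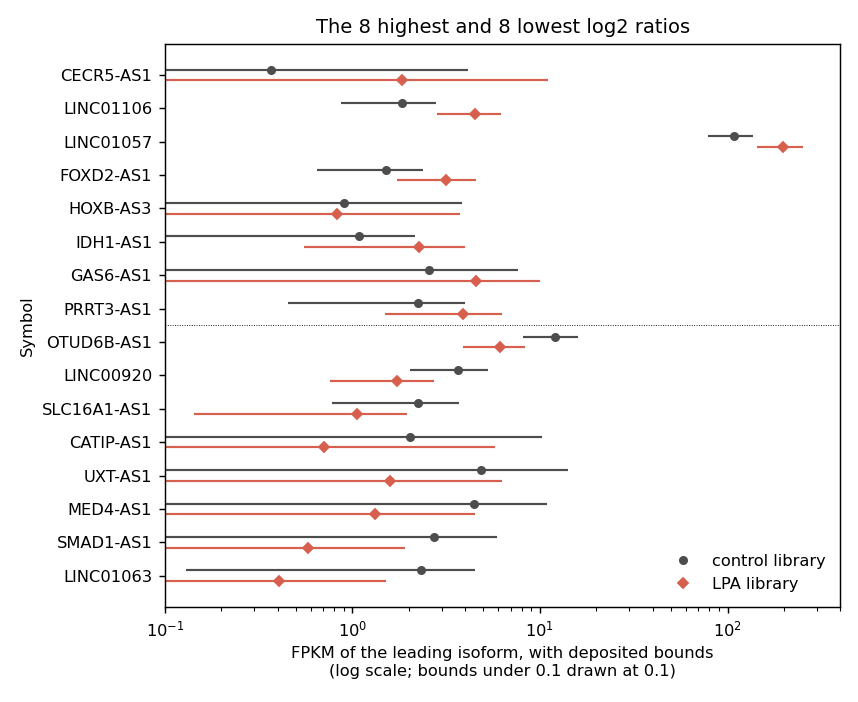
FPKM of the leading isoform with the deposited bounds (x axis, log scale) in the control (grey circles) and LPA (red diamonds) libraries, for the 8 members of highest and the 8 of lowest log2 ratio of summed FPKM. Only for LINC01106 and LINC01057 are the bars apart, and for HOXB-AS3 the leading isoform (of 8) does not show the difference of the sum.

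Single isoforms were compared as well. Of 287 member isoforms with a mean of at least 1 FPKM, 7 were higher and 14 lower by 2-fold or more with LPA. These are 2.44% and 4.88% of them, against 4.41% and 3.47% of all 16949 isoforms at that level. Several on either side were isoforms of LRRC75A-AS1, among them the lowest (log2 ratio -2.25) and the highest (2.67). Each of those had a lower bound of 0 in both libraries, and the log2 ratio of the summed gene was -0.16. With deposited bounds that did not overlap, 2 isoforms remained on the high side and 1 on the low side (0.697% and 0.348%), against 2.19% and 1.81% of all isoforms. The shares of member isoforms were below those of all isoforms except for the 2-fold lower count.

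Members named -AS or -IT were set beside the genes they are named for, here called sense genes. Of 175 measured -AS and -IT members, 171 had that gene in the table and 138 had it at a mean of 1 FPKM or more. In 73 of those 138 pairs both log2 ratios had the same sign. Across the pairs, which come from the same libraries, Pearson's r was 0.15 and Spearman's rho 0.18, as a description. The -AS or -IT member was above its sense gene in 27 pairs, and its median level was 0.328 of the sense level, both per length. The 138 pairs include AGAP1-IT1, named as intronic, and HNRNPU-AS1, which matched a gene with the start and strand of HNRNPU. Not every pair is therefore an antisense RNA and its sense gene.

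Pairs that start close together on opposite strands gave similar counts. In 51 pairs the starts were at most 1000 nt apart on opposite strands, with the same sign in 28, and a median antisense level of 0.272 of the sense gene. Pairs that the table placed in 1 locus had the same sign in 42 of 86, and pairs in separate loci in 31 of 52.

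In 2 of the 138 pairs the sense gene was at least 1.5-fold apart. At that fold 1.26% of all genes tested were called higher and 1.37% lower. IDH1 is described above. The other was SDCBP2, the gene of syntenin-2, at 0.532 FPKM in untreated and 3.38 FPKM in LPA-treated cells (log2 ratio 1.52), while SDCBP2-AS1 was at 1.54 and 1.11 FPKM (log2 ratio -0.26).

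**Figure D5:**
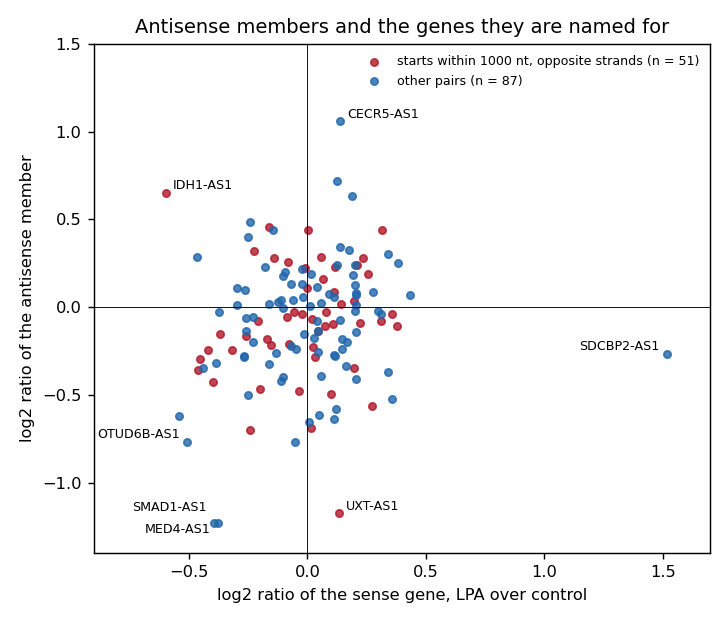
Log2 ratio of each -AS or -IT member (y axis) against that of the gene it is named for (x axis), LPA over control. Shown are the 138 pairs with both at a mean of 1 FPKM or more. Red pairs start within 1000 nt on opposite strands. Points fill all quadrants, and IDH1-AS1 and SDCBP2-AS1 differ in sign from their sense genes.

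Among well-studied LINC RNAs, 9 of the 19 listed were measured, 2 above and 7 below 0, with a median of -0.16. None was 2-fold apart on the scale with 1 added to each FPKM. LINC00511 was at 1.92 FPKM in untreated and 0.890 FPKM in LPA-treated cells (log2 ratio -0.63), with bounds of 1.119 to 2.73 and 0.425 to 1.35. LINC00662 was at 1.95 and 0.938 FPKM (log2 ratio -0.61). LINC00346, now PRECSIT, was at 1.22 and 0.797 FPKM (log2 ratio -0.31). These were the lowest of the group, each with overlapping bounds.

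The other LINC RNAs of that list differed little. LINC00460 was at 3.65 and 3.06 FPKM and LINC00941 at 1.41 and 1.151 FPKM. LINC01138 was at 3.39 and 3.29 FPKM and LINC01089 at 3.21 and 3.77 FPKM, with 61.0% of the latter over exons of RHOF on the same strand. LINC00472 and LINC00675 were listed at 0 in both libraries.

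Among well-studied antisense RNAs, 11 of the 23 listed were measured, 7 above and 4 below 0, with a median of 0.11 and none 2-fold apart. That list holds BACE1-AS, whose name has no digit and is therefore no member, at 2.04 and 2.15 FPKM. HIF1A-AS2 was at 14.1 FPKM in untreated and 17.4 FPKM in LPA-treated cells (log2 ratio 0.28), while HIF1A, the oxygen-regulated transcription factor gene, was at 14.5 and 10.2 FPKM (log2 ratio -0.47). The bodies of HIF1A-AS2 and HIF1A overlap by 1220 nt, and how reads of both were divided was not tested. OIP5-AS1, a cytoplasmic RNA that binds microRNAs and proteins, was at 12.9 and 11.2 FPKM. MAPKAPK5-AS1 was at 13.3 and 15.3 FPKM, and the kinase gene MAPKAPK5 at 12.3 and 14.9 FPKM. Of the GENCODE transcript of MAPKAPK5-AS1, 34.6% lies over exons of MAPKAPK5, and the division of their reads was not tested either.

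Lower in level were ZEB1-AS1, at 1.32 and 0.998 FPKM, and TMPO-AS1, at 1.44 and 1.62 FPKM. ZEB1 encodes a transcriptional repressor that promotes epithelial-mesenchymal transition. LOXL1-AS1 was at 2.79 and 2.31 FPKM, PRKCQ-AS1 at 1.198 and 1.14 FPKM, and SLC25A25-AS1 at 2.77 and 3.34 FPKM. All had overlapping bounds. TP73-AS1, ZEB2-AS1, HIF1A-AS1, HNF4A-AS1 and DLX6-AS1 were among those listed at 0 in both libraries.

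Of the 8 antisense symbols of the HOX clusters, 3 were measured, 1 above and 2 below 0. HOXC-AS1 was the most abundant, at 11.5 FPKM in untreated and 11.1 FPKM in LPA-treated cells. HOXD-AS2 was at 3.94 and 2.66 FPKM (log2 ratio -0.43), and HOXB-AS3 is given above. HOXC-AS3 was listed at 0 in both libraries, and the other HOX members were at or below 0.332 FPKM.

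Well-known long noncoding genes that mostly fall outside the naming rule were set beside the members. Of 32 listed, 23 were measured, 14 above and 9 below 0, with a median of 0.12 and none 2-fold apart. EPB41L4A-AS1 is in both sets, and NORAD and CYTOR are in the table under their LINC names. The nuclear RNA MALAT1 was at 34.0 FPKM in untreated and 52.6 FPKM in LPA-treated cells (log2 ratio 0.62). The small nucleolar RNA host genes SNHG6 (966 and 833 FPKM) and GAS5 (486 and 489 FPKM) were, with LRRC75A-AS1, the highest of both sets by mean level.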

How the data were processed

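Poly-A RNA of HCT-116 cells was sequenced as 1 control and 1 LPA library, grouped by sample title. Per the submitters' processing notes, the tools were TopHat2 2.0.12, Cufflinks, Cuffdiff 2.2.0 and bcl2fastq 2.16.0.10, and the build was hg38. For their settings and for library scaling, no source used here gives a value. The authors deposited FPKM per isoform, with a lower and an upper bound, per the file headers. FPKM were summed per symbol over isoforms of at least 300 nt. Genes with a mean of at least 1 FPKM were compared by log2 of (LPA + 1) over (control + 1), which understates differences of low genes.

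No read counts were used. The worth of 1 fragment was estimated, per length range, from the lowest FPKM multiplied by length of genes with 1 isoform. Members were matched to RefSeq GRCh38.p14 by accession (1860 of 1904) or symbol (1903 in all), and to GENCODE release 29 transcripts for exon overlap. Near-identical stretches (at least 100 nt, 95% identity) were found with BLAST+ 2.17.0. Python 3.11.15, pandas 2.3.3, numpy 2.4.6 and matplotlib 3.10.9 were used, and the script was tested on simulated data. Known changes were put only into genes well above the level of the 2-fold members. The simulation therefore does not bear on the calls of low members.

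Named members are the 12 most abundant, the 8 highest and 8 lowest log2 ratios, those 2-fold apart, antisense members whose sense gene was 1.5-fold apart, and measured members of the lists. Members outside this rule that are named were chosen after their values were seen. The members and lists were chosen with earlier results of these data known. Alternatives were other pseudocounts, filters and isoform sets, 12 in all.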

Additional observations from a re-analysis of the deposited data

How the results depend on the processing

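Counts of members 2-fold apart depended on the settings. The pseudocount gave 4 higher and 9 lower at 0.1, 2 higher at 0.5, and 0 in both directions at 5. A mean of at least 2 FPKM left 0 higher and 2 lower, and the leading isoform alone gave 10 lower. Isoforms of at least 1000 nt gave 0 in both directions, and leaving out loci shared with a coding gene gave 0 higher and 1 lower. The median log2 ratio stayed between -0.09 and 0 under all 12 alternatives, with 0 where no filter on FPKM was set. The remaining 5 alternatives left both counts within 1.5 times of those reported. No named member changed sign while 2-fold apart, but 2 of 44 had the other sign with the leading isoform alone and 1 of 25 with isoforms of at least 1000 nt. The 2-fold members all lie under 5 FPKM, and the part of depth in their differences was not tested. No paired analysis was possible because each group has 1 library, both titled with the number 3.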

Other observations

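Single isoforms of a few members differed more between the libraries than the sum over the isoforms of the gene. These members were chosen after their values were seen. Deposited bounds that did not overlap were found in 3 member isoforms 2-fold apart.

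NR2F1-AS1, named for the nuclear receptor gene NR2F1, held 2 of them. Its 2658-nt isoform was at 9.42 FPKM in untreated cells (bounds 6.06 to 12.8) and 3.72 FPKM in LPA-treated cells (bounds 1.80 to 5.65). Its 2655-nt isoform was at 0.0986 FPKM (bounds 0 to 0.446) and 3.57 FPKM (bounds 1.66 to 5.48). The summed level of NR2F1-AS1 was 14.3 and 11.0 FPKM. The remaining one was the 2063-nt isoform of SVIL-AS1, at 0.000597 FPKM in untreated cells (bounds 0 to 0.0576) and 2.15 FPKM in LPA-treated cells (bounds 0.573 to 3.72), while the 2088-nt isoform was at 5.01 and 2.78 FPKM. The isoforms of each gene differ little in length and share sequence, and how their shared reads were divided was not tested.

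TMEM161B-AS1 had the lowest log2 ratio of a leading isoform, -1.50. That isoform, of 688 nt, was at 4.64 FPKM in untreated and 0.995 FPKM in LPA-treated cells with overlapping bounds, and the 1109-nt isoform was at 1.80 and 3.27 FPKM.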
